A study of Mus musculus with 2 samples.

Results

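Macrophages and osteoclasts are related cells of the myeloid lineage. Macrophages take up debris and microbes and remain in most tissues for long periods, while osteoclasts form when myeloid precursors fuse, attach to bone and dissolve it with acid and proteases. In a continuously growing incisor, osteoclasts remodel the bony socket around the tooth, and macrophages lie in the pulp and the loose tissue around the epithelium. Both kinds of cell depend on the growth factor receptor CSF1R, and osteoclasts need in addition the ligand RANKL.

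Markers of these cells, 10 in number and chosen by gene symbol, were followed in total RNA of the mouse incisor cervical loop (CL), where the epithelial stem cells of the tooth reside. Of the 10 symbols, 8 were found in the platform annotation, with 13 probes among 25697. They were Aif1, Cd14, Mrc1 and Cd163 for macrophages and Acp5, Ctsk, Calcr and Ocstamp for osteoclasts. No probe of that annotation carried the symbol Csf1r or Cd68, and neither gene was analysed here. For comparison, the annotation names 16593 genes in all.

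The tested tissue came from Med1 KO mice, which carried floxed Med1 alleles (MED1 fl/fl) and the K14Cre transgene, and the control tissue from littermates with MED1 fl/fl alone, labelled WT. Both were on the C57BL/6 background and 10 wk old, and each sample combined tissue of 3 mice. The Cre recombinase was driven by the keratin 14 promoter, so deletion of Med1, a subunit of the Mediator complex, was directed to epithelial cells. Macrophages and osteoclasts are haematopoietic and not epithelial cells. There was 1 column of values for KO and 1 for WT, called arrays here, although the design text gives n = 3. Hence no test between the genotypes was possible, no value has an error between animals, and each difference describes these 2 arrays.

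Of the 8 genes on the array, 4 were detected on both arrays, meaning that a probe lay above the negative control probes at a detection p under 0.01. These were the macrophage genes Aif1, Cd14 and Mrc1 and the osteoclast protease gene Ctsk. All 4 were lower on the KO array than on the WT array, and all differences were small. In the order of their size, Cd14 was 1.39-fold, Aif1 1.17-fold, Ctsk 1.10-fold and Mrc1 1.05-fold lower. None of the 4 reached 1.5-fold in either direction, as 4.02% of the 8378 detected genes did, 1.78% higher and 2.24% lower. None reached 2-fold, as 0.394% did, 0.143% higher and 0.251% lower. Over the 11742 detected probes these shares were 3.99% at 1.5-fold (1.81% higher, 2.17% lower) and 0.383% at 2-fold (0.17% higher, 0.213% lower). A ratio below 0 was found for 49.7% of all detected genes. The other 4 genes, Cd163, Acp5, Calcr and Ocstamp, were detected on neither array. The name macrophage markers thus rested on 3 of 4 genes with a probe, and the name osteoclast markers on Ctsk alone.

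All detected members were measured on both arrays and had ratios of the same sign. The 250 bases before the annotated start are shown for Ctsk, Mrc1 and Aif1, the detected members with a promoter sequence. Members that were not detected are left out. They are taken from RefSeq on the mouse build GRCm38.p6, and capitals mark matches to the motifs searched. Cd14 is named only, since the promoter sequences used held no entry for it. The motifs were GAGGAA, the core bound by PU.1, the transcription factor that directs myeloid cells, and TGAGTCA, bound by AP-1. In addition CACGTG and CATGTG were searched, 2 E-boxes bound by MITF and related factors of the osteoclast lineage. Both strands were read, so GAGGAA also appears as TTCCTC and CATGTG as CACATG, and no match overlapped another.
Ctsk, chr3:95498960-95499209, plus strand: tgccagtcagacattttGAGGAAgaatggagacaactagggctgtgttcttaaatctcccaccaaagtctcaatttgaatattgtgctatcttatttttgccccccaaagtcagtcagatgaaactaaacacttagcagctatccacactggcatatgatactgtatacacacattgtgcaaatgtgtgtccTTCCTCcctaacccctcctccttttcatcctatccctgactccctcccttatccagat
Mrc1, chr2:14229164-14229413, plus strand: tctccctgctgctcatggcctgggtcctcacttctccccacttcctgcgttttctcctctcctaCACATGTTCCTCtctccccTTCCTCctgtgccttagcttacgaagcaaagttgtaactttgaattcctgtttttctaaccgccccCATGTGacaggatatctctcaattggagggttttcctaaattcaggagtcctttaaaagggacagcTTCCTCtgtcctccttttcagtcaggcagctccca
Aif1, chr17:35176053-35176302, minus strand: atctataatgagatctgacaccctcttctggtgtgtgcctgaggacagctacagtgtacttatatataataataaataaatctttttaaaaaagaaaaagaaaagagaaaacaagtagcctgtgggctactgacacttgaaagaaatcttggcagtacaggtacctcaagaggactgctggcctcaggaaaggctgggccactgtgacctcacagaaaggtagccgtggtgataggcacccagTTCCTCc
The PU.1 core was present in all 3 windows. It began 233 and 58 bases before the start of Ctsk, 180, 167 and 35 bases before that of Mrc1, and 7 bases before that of Aif1. Such a match is frequent, at 23.3% of the 32851 promoter windows of the same length. Mrc1 also held CATGTG at 186 and 101 bases before its start, and 12.3% of all windows hold this motif. TGAGTCA and CACGTG, found in 4.46% and 6.02% of all windows, were not among the letters of these 3. A match describes the sequence and shows no binding.

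Cd14 encodes the co-receptor that passes bacterial lipopolysaccharide to Toll-like receptor 4 on monocytes and macrophages. Its single probe read a non-normalized intensity of 138.8 on the KO array and 159.5 on the WT array, with detection p-values of 0.00125 and 0. Both values were close to the lowest intensities called detected, which were 123.1 on the KO array and 123.5 on the WT array. After background correction and quantile normalization the log2 values were 5.70 in KO and 6.18 in WT, a log2 ratio of -0.47. Cd14 thus had the lowest ratio among the detected markers, and 460 of the 8378 detected genes (5.49%) had a ratio as low or lower. The size of the difference depended on the background correction, since in the authors' normalized values the Cd14 ratio was -0.20 and Cd14 was 1.15-fold lower.

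Aif1 encodes IBA1, an actin-binding protein of macrophages and microglia that is much used to stain them. It had 3 probes. The brightest read 169.4 on the KO array and 188.9 on the WT array, with a log2 ratio of -0.23. Another read 157.6 in KO and 182.9 in WT, with a log2 ratio of -0.38. The 2 detected probes of Aif1 therefore had the same sign. The third read 99.6 in KO and 96.3 in WT and was not detected on either array. Of all detected genes, 18.4% had a ratio as low as the brightest Aif1 probe or lower. In the authors' normalized values the Aif1 probes lay at -0.12 and -0.18.

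Mrc1 encodes the mannose receptor CD206, an endocytic receptor of resident macrophages that some endothelial cells also carry. Its probe read 510.2 on the KO array and 580.7 on the WT array. After normalization the log2 values were 8.80 in KO and 8.87 in WT, a ratio of -0.07. This was the smallest difference among the detected markers, and 38.6% of all detected genes had a ratio as low or lower.

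Cd163, the scavenger receptor by which macrophages take up haemoglobin bound to haptoglobin, stood nearest to detection among the markers detected on neither array. One of its 2 probes read 110.2 on the KO array and 119.7 on the WT array, with detection p-values of 0.13283 and 0.01253. The other read 100 in KO and 106.7 in WT, with detection p-values of 0.74687 and 0.12155. Both probes were thus brighter in WT, within the range of the negative controls. With a detection p under 0.05 the brighter probe would count as detected in WT only. In the reported processing the bound for Cd163 would then be a KO level at least 1.25-fold below WT. This bound does not hold in the authors' normalized values, where the probe was 1.12-fold lower in KO.

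Ctsk encodes cathepsin K, the cysteine protease with which osteoclasts degrade bone collagen. Fibroblasts and other mesenchymal cells can also make it. Its probe read 1221.9 on the KO array and 1511.0 on the WT array, so the non-normalized KO value was 80.9% of the WT value. Quantile normalization brought the log2 values to 10.25 in KO and 10.39 in WT, a ratio of -0.14, at which the KO value was 90.7% of WT. Of all detected genes, 28.2% had a ratio as low as Ctsk or lower.

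The 3 osteoclast markers other than Ctsk gave no signal above background on either array. Acp5, the gene of tartrate-resistant acid phosphatase, read 109.4 on the KO array and 93.3 on the WT array, with detection p-values of 0.15915 and 0.89223. Ocstamp, which encodes a membrane protein needed for the fusion of osteoclast precursors, read 106.1 in KO and 107.0 in WT. Calcr, the calcitonin receptor gene, had 3 probes, which read 102.9, 99.8 and 96.7 in KO against 90.9, 102.8 and 102.2 in WT. All of these values lay below the lowest detected intensity, so no fold between KO and WT is given. They show that the transcripts were not detectable with these probes, not that they were absent.

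**Figure D1:**
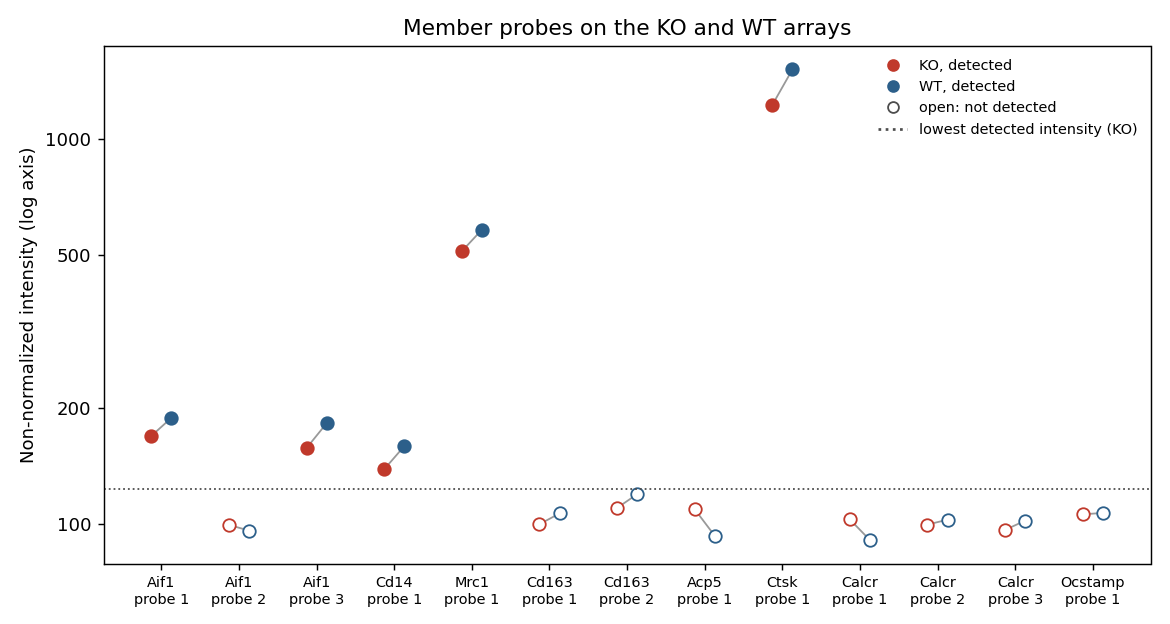
Non-normalized intensity (log axis) of the 13 probes of the 8 marker genes, with KO in red to the left of WT in blue. Filled circles were detected at a detection p under 0.01, open circles were not, and the dotted line is the lowest detected intensity on the KO array, 123.1. The detected probes of Aif1, Cd14, Mrc1 and Ctsk lay lower on the KO array, while the open circles of Cd163, Acp5, Calcr and Ocstamp and of 1 Aif1 probe lay below the line.

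As the only guide to measurement error, the ratios of the 2 brightest probes of the same gene were compared, for 1791 genes with both probes detected on both arrays. The SD per probe was 0.22 log2 units, and 0.28 for probes dimmer than the median detected probe. The 95th percentile of the absolute difference between the 2 probes was 0.63, and 0.76 for the dimmer probes. This spread holds no variation between animals, and no error that both probes of a gene share on an array. The ratios of Mrc1 and Ctsk were smaller than 0.22. That of the brightest Aif1 probe was about equal to it, and the second Aif1 probe and Cd14 exceeded 0.28. Exceeding 1 SD does not place a ratio beyond measurement error. In a mixed tissue, fewer cells of a type and less RNA per cell cannot be told apart.

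The median log2 ratio of the 4 detected markers was -0.18, beside 0.00 over all detected genes, and that of the 3 macrophage markers was -0.23. All 4 ratios stayed below 0 under 4 other normalizations, where this median ranged from -0.32 to -0.12. Other detection filters cannot alter the ratio of a gene detected on both arrays, and averaging probes altered Aif1 alone among these genes, to -0.30. With median scaling the ratios were -0.54 for Cd14, -0.34 for Aif1, -0.31 for Ctsk and -0.21 for Mrc1. That scaling moved the median of all detected genes to -0.13. Relative to it, the values were -0.41, -0.21, -0.18 and -0.08 in the same order.

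**Figure D2:**
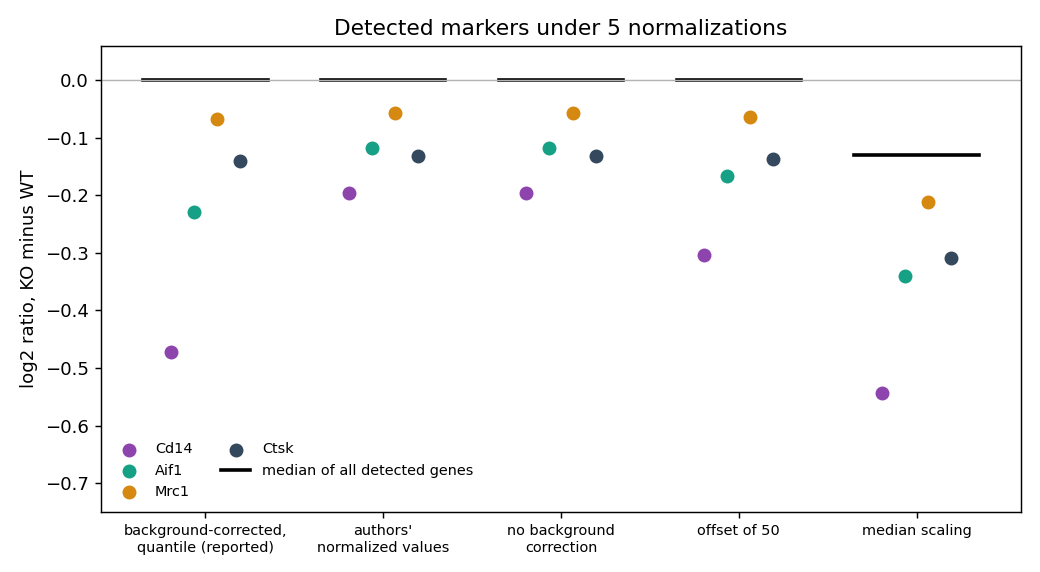
Log2 ratio (KO minus WT) of Cd14, Aif1, Mrc1 and Ctsk under the reported processing and 4 other normalizations, with each circle a gene. The black bars mark the median of all detected genes, which was -0.13 with median scaling and 0.00 in the others. Cd14 spread widest, between -0.54 and -0.20, and all circles lay below the bar of their setting.

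Other macrophage genes did not share a direction. Of 20 genes listed, 19 were on the array and 13 were detected, 7 of them with a ratio above 0 and 6 below. Their median was 0.01, and it crossed 0 in 3 of 8 other processing settings. Cx3cr1, the fractalkine receptor gene of monocytes and tissue macrophages, read 191.8 in KO and 152.4 in WT and was 1.66-fold higher, with a log2 ratio of 0.73 that was 0.36 in the authors' normalized values. C1qa, a subunit of the complement initiator C1q, was 1.30-fold higher, whereas its partner subunits C1qb and C1qc lay at -0.14 and -0.21 log2 units. Mertk, a receptor for the uptake of dying cells, was 1.18-fold higher. Adgre1, which encodes an adhesion receptor used as a macrophage surface antigen, read 142.1 in KO and 141.5 in WT, with a ratio of 0.01 and a second probe at -0.26. Tyrobp, the adaptor DAP12, was detected in WT only, at a log2 value of 5.27. Its bound was 1.08-fold lower in KO. The lowest detected log2 value was 5.15 on the KO array and 5.26 on the WT array. Any gene detected in WT only therefore gets a bound below 0, and that of Tyrobp arose mostly in this way. Lyz2, the lysozyme of macrophages and neutrophils, lay at 0.10 log2 units by its brighter probe and at 0.46 by a second. Among the genes detected on both arrays, the ratios thus lay between -0.21 (C1qc) and 0.73 (Cx3cr1). Ctss, which encodes the macrophage protease cathepsin S, missed detection narrowly, at 103.4 in KO and 122.0 in WT, where its detection p was 0.01003.

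Genes of resident and alternatively activated macrophages, the group to which Mrc1 and Cd163 belong, had a median of -0.10. Of 14 such genes on the array, 8 were detected, 6 with a ratio below 0 and 2 above. Mgl2, a galactose-binding lectin gene, read 146.9 in KO and 190.7 in WT and was 1.66-fold lower, with a log2 ratio of -0.73 that was -0.35 in the authors' normalized values. Gas6, a ligand of MERTK made by many cell types, read 1713.7 in KO and 2653.1 in WT and was 1.39-fold lower. Pf4 lay at -0.17 and Stab1, a scavenger receptor gene, at -0.14 log2 units. In the other direction, Chil3 was detected in KO only and was at least 1.71-fold higher in the reported processing. This bound, a log2 ratio of 0.78, does not hold in the authors' normalized values, where the Chil3 ratio was 0.35. Chil3 encodes the chitinase-like protein YM1, which neutrophils and their precursors also make. Lyve1, Retnla and Arg1 were among the 6 genes not detected.

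The signals that guide osteoclast formation were measured in part. Of 14 genes listed, 13 were on the array and 6 detected, and each of the 6 had a ratio below 0 by its brightest detected probe. Their median was -0.26, or -0.20 with a gene detected on 1 array at its bound. Tnfrsf11b encodes osteoprotegerin, the decoy receptor that neutralizes RANKL. It read 358.6 in KO and 563.6 in WT, had a log2 ratio of -0.67 and was 1.59-fold lower. Csf1, the ligand of CSF1R, read 142.1 in KO and 157.3 in WT and was 1.26-fold lower. Bcl6, a transcriptional repressor gene, lay at -0.23 and Nfatc1, the master transcription factor of osteoclasts, at -0.16, with other detected Nfatc1 probes at -0.24 and -0.07. Oscar, an osteoclast receptor gene, was detected in WT only and was at least 1.13-fold lower in KO, a bound of -0.17 log2 units, whereas the ratio was -0.09 in the authors' normalized values. Tnfsf11, which encodes RANKL, its receptor gene Tnfrsf11a, and Il34, the other ligand of CSF1R, were not detected on either array. Tnfsf11 read 112.7 in KO and 102.9 in WT, and Il34 read 107.8 in KO and 119.4 in WT.

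The effector genes of the osteoclast lay on both sides of 0. Of 14 genes listed, 12 were on the array and 9 detected, 6 above 0 and 3 below, with a median of 0.12 that became -0.02 under median scaling. Plekhm1, needed for the secretion of lysosomes, was 1.34-fold higher on the KO array, and Slc4a2, a chloride-bicarbonate exchanger gene, lay at 0.15 log2 units. Car2, the carbonic anhydrase that supplies acid, was 1.28-fold lower, and Clcn7, a chloride transporter gene, lay at -0.17. Mmp9, a gelatinase gene of osteoclasts and neutrophils, read 403.4 in KO and 444.5 in WT, with a ratio of -0.02. Tcirg1, Ostm1, Src and Snx10 are expressed in many cell types. The more restricted genes Dcstamp, Atp6v0d2 and Itgb3 were not detected.

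Around Cd14 in the Toll-like receptor pathway, 9 of 11 genes on the array were detected, 5 above 0 and 4 below, with a median of 0.07 (-0.05 under median scaling). The measured ratios of the receptor and its partner were below 0, like that of Cd14, but the receptor was barely detected. Tlr4, the signalling receptor gene, read 116.2 in KO and 123.6 in WT and was detected in WT only. The lowest detected WT intensity was 123.5. Its bound of 1.08-fold lower in KO arose mostly because the lowest detected log2 value was lower on the KO array, so it cannot tell the side. Ly96, whose product MD-2 binds lipopolysaccharide together with TLR4, read 166.3 in KO and 198.4 in WT and was 1.33-fold lower. The adaptor genes lay on the other side or near 0. Tirap was 1.56-fold higher by its brighter probe, but a second probe lay at -0.08 log2 units. Myd88 lay at 0.17 and Ticam1 at -0.05, and Ticam2 had a measured ratio of 0.48 but was detected in KO only.

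Lysosomal genes, which macrophages and osteoclasts express strongly but all cells use, lay around 0. Of 14 on the array, 12 were detected, 7 above 0 and 5 below, with a median of 0.03 (-0.12 under median scaling). Ctsh, a cathepsin gene, was 1.27-fold higher in KO, Lgmn lay at 0.16 and Grn at -0.18 log2 units. Ctsl was detected in WT only. Its bound of 1.10-fold lower in KO arose mostly because the lowest detected value was lower on the KO array.

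**Figure D3:**
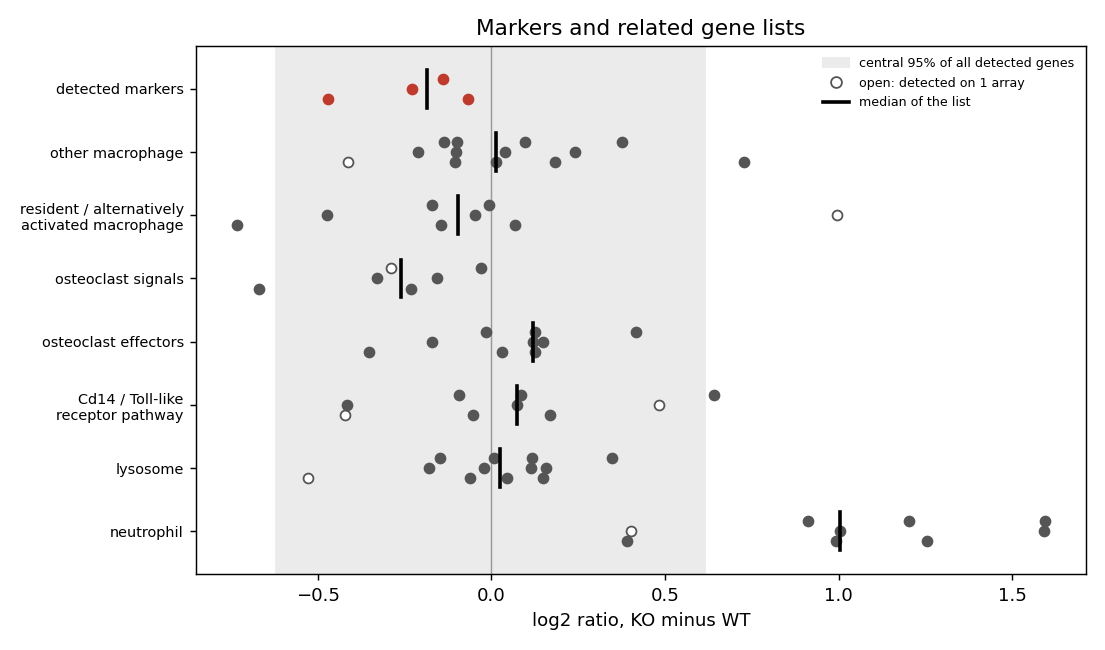
Log2 ratio (KO minus WT) of the detected markers (red) and of related gene lists (grey), with each circle a gene and each black bar the median of its list. Open circles were detected on 1 array only, and the shaded band holds the central 95% of all detected genes, from -0.62 to 0.61. The 4 markers lay inside the band. The neutrophil list had the median farthest to the right, 1.004, although its genes Mpo and Elane lay inside the band.

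Of 13 neutrophil markers on the array, 9 were detected, and all 9 were higher on the KO array. Their log2 ratios ranged from 0.39 (Mpo) to 1.60 (Retnlg). Elane was detected in KO only. Its bound of 0.31 log2 units does not hold in the authors' normalized values, where its ratio was 0.13. Mmp8, Cxcr2, Csf3r and Fcnb were not detected. The median was 1.004, or 0.81 in the authors' normalized values. The summed level was 5848 in KO and 2786 in WT on the linear normalized scale. S100a8 and S100a9, which keratinocytes also make, held much of that sum. Without them, an alternative chosen after seeing the data, 7 of 7 detected genes were above 0, with a median of 0.99. Their summed level was 1571 in KO and 704 in WT. For pan-leukocyte genes, 7 of 10 were detected, the median was 0.06 (-0.06 under median scaling) and the summed level was 2370 in KO and 2455 in WT, and Ptprc, the gene of CD45, was not detected. Over 6 blood endothelial genes the median was -0.20, and the summed level was 1811 in KO and 2459 in WT. Fibroblast genes had a median of -0.10 over 5 of 6 genes. Only 2 of 6 lymphatic and sinusoidal endothelial genes were detected, with a median of 0.00, as were 2 of 9 dendritic cell genes, at -0.25, 2 of 6 monocyte genes, at -0.07, and 1 of 9 lymphocyte genes, at 0.01. Osteoblast genes had a median of 0.09 over 5 of 6 genes. The part of these cells in the differences of the markers was not tested. The dental epithelium was present in both samples, with Amelx at 22412.7 in KO and 22621.8 in WT. The list median over 7 genes was 0.00, which is the ratio of Amelx itself after quantile normalization. That normalization gives equal values to probes of equal rank. Amelx lay near the highest intensities of the arrays, 25358.6 in KO and 26193.7 in WT. Its ratio of 0 therefore does not measure equal amounts of epithelium. The 7 ratios ranged from -0.23 (Krt5) to 0.60 (Sp6). By other detected probes Enam lay at -0.71 and Sp6 at 0.08 and 0.21. The single detected odontoblast marker was Phex, at 0.14, which also counts among the osteoblast genes. Dspp and Dmp1 were not detected. The targeted gene Med1 read 172.9 in KO and 245.9 in WT with its only detected probe of 4, a 1.74-fold lower level in KO.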

How the data were processed

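RNA of dissected CL tissue was measured on Illumina MouseRef-8 v2 bead arrays, with 1 KO and 1 WT sample of 3 mice each. Per the labels, the arrays were read in GenomeStudio. The authors deposited a linear intensity per probe that was neither background-subtracted nor normalized, and beside it a detection p-value against the negative control probes. They also deposited a second table of intensity values normalized between arrays. The design text gives n = 3 per genotype, and whether a column is 1 array or a mean is not stated. The detection p-value columns carry no sample name. Each was assigned to the intensity column before it, which it followed in rank with 711 (KO) and 714 (WT) order breaks, against 13976 and 13898 for the opposite assignment.

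Intensities were processed with neqc of limma (version 3.58.1, R 4.3.3), with an offset of 16 and quantile normalization, and each ratio is the log2 value in KO minus that in WT. Offset and correction weigh most on dim probes. Of 25697 probes, 11742 passed a detection p of 0.01 on 1 or both arrays and 10656 on both. They stood for 8378 named genes, each represented by its brightest detected probe. Of all probes, 23978 had 1 gene symbol, none had several and 1719 had none. A probe detected on 1 array was given a lower bound, and counts by fold use this bound. It was taken against the higher of the probe's own value and the lowest detected value on the dim array. That lowest value was 5.15 in KO and 5.26 in WT (log2). Being lower in KO, it gives every probe detected in WT only a bound below 0, so the sign of such a bound is no result. The script was tested on simulated data. With 1 sample per group no test was made, and the number of arrays limits the precision. Of 188 entries in 18 gene lists, 171 were matched on the array. The text names all markers, up to 4 genes with the widest ratios per list of related or pathway genes, and set ligands and receptors. Lists of cell type markers are given mainly by counts and medians, and most of their widest genes are not named. Other names were chosen after their values were seen. The markers and lists were chosen with earlier results of these data known. Alternatives changed the background correction, offset, scaling, detection filter and choice of probe.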

Additional observations from a re-analysis of the deposited data

How the results depend on the processing

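With 1 array per genotype, no spread between animals was measured, and dim probes were limited by signal over background. The Cd14 ratio, from a dim probe, was -0.47 in the reported processing. It was -0.20 in the values normalized by the authors and likewise -0.20 with no background correction, and both of these settings leave the background signal in the values. An offset of 50 and median scaling moved Cd14 by less than 0.22, the spread (SD) between probes, and the 4 normalizations moved Aif1, Mrc1 and Ctsk by less than this without a change of sign. The detection filters could not move these ratios. The number of probes at 2-fold or more was 45 (20 higher, 25 lower on the KO array). It was 10 (3 and 7) in the values normalized by the authors, also 10 (3 and 7) with no background correction, 17 (8 and 9) with an offset of 50 and 468 (213 and 255) at a limit of 1.5-fold. With median scaling it was 54, split into 12 higher and 42 lower. Of 144 list medians recomputed, 143 moved by less than 0.22. That limit is the spread of single probes and is wider than most list medians, so a median could cross 0 within it. The dendritic cell median was 0.028 with no detection filter, where more genes entered. Smaller moves crossed 0 in 3 of 8 alternatives for the other macrophage genes, from -0.10 to 0.03. The median of the osteoclast effector genes likewise went from 0.12 to -0.02 with median scaling. No paired analysis was possible because each genotype had a single column of values and the labels number no replicates.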

Other observations

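Genes that handle haemoglobin and haem, among them the ligand of CD163 and the enzymes that degrade haem, lay on both sides of 0. Of 7 genes on the array, 5 were detected, 2 above 0 and 3 below, with a median of -0.12 (0.03 over the genes detected on both arrays). Hp, which encodes haptoglobin, the haemoglobin-binding ligand of CD163, read 192.8 in KO and 147.5 in WT and was 1.80-fold higher on the KO array. Its log2 ratio of 0.85 was 0.41 in the authors' normalized values. A second Hp probe, detected in KO only, had a measured log2 ratio of 0.43. Slc40a1, which encodes the iron exporter ferroportin, read 604.8 in KO and 1019.7 in WT and was 1.61-fold lower. Hmox1, the gene of the haem-degrading enzyme haem oxygenase, was detected in WT only and was at least 1.16-fold lower in KO. Blvrb, a biliverdin reductase gene, lay at 0.17 and Fth1, the ferritin heavy chain gene, at -0.12 log2 units. Neutrophils also make haptoglobin, and neutrophil markers had a median of 1.004 on the same scale. The part of those cells in the Hp difference was not tested.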
